A study of Mus musculus with 8 samples.

Results

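The cyclin genes *Ccna1*, *Ccna2*, *Ccnb1*, *Ccnb2*, *Ccnb3*, *Ccnd1*, *Ccnd2*, *Ccne1* and *Ccne2* and the kinase gene *Cdk2* were followed in RNAseq of whole testes from 12-day-old (P12) mice. They were chosen by gene symbol: each of the 10 symbols is listed once in the count table of every mouse, among 40840 genes, and all 10 passed the filter on low counts that left 19104 genes for testing. Testes came from 4 wild type mice and 4 *Tra2b-cPEko* mice, replicates A to D of each genotype, all on a C57BL/6J background. The mice called wild type carry the genotype Tra2bPE fl/+ without Cre, and the *Tra2b-cPEko* mice are Tra2bPE fl/-;Vasa-Cre, so that the poison exon of *Tra2b*, an exon whose inclusion stops production of the splicing regulator Tra2β, is lost from 1 allele in every cell and from the other by a Cre that is active in germ cells. Supporting cells of the mutant testes therefore keep 1 intact copy of the exon. Because whole testes were sequenced, fewer cells of a type and less RNA per cell cannot be told apart.

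Cyclins are the activating subunits of cyclin-dependent kinases, and a kinase such as Cdk2 is inactive until a cyclin binds. D-type cyclins act with Cdk4 and Cdk6 in early G1, E-type cyclins with Cdk2 at the entry into S phase, A-type cyclins with Cdk2 and Cdk1 in S and G2 phase, and B-type cyclins with Cdk1 at division. In the first wave of spermatogenesis, spermatogonia leave the mitotic cycle, replicate their DNA a last time and enter meiotic prophase, and the testis at this age holds spermatogonia and early spermatocytes next to Sertoli, Leydig, peritubular, endothelial and blood-derived cells. *Ccna1* and *Ccnb3* are germ cell cyclins, whereas most of the others are used by any dividing cell.

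Each library had between 36757386 and 59101569 reads on genes. Levels are given in CPM, which scales counts to the library total with TMM factors. *Tra2b* itself had between 156 and 176 CPM in wild type mice but 190.3 to 209 in *Tra2b-cPEko* mice, and the paralogue *Tra2a* between 111 and 144 against 65.1 to 73.2. Neither range overlaps between genotypes. Counts per gene do not show the removal of the poison exon itself. Markers of pachytene spermatocytes separated the wild type libraries among themselves: *Piwil1* had 43.6 and 46.8 CPM in wild type replicates A and B, 10.2 and 14.4 in C and D, and from 9.04 to 14.3 CPM in mutants.

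None of the 10 genes differed between genotypes by the quasi-likelihood test of edgeR at a Benjamini-Hochberg adjusted p under 0.05. Of all genes tested it called 30, or 0.157%. At an unadjusted p under 0.05 there were 2 of the 10, *Ccnd2* lower and *Ccnb3* higher in *Tra2b-cPEko* testes, where the share of all genes was 15.3%. DESeq2 called 1 of the 10, *Ccnd2*, against 2.79% of the 18149 genes it gave an adjusted p (1.14% lower, the direction of *Ccnd2*), and limma-voom called none, against 0.126% of all genes. For none of the 10 genes did all mice of one genotype lie above all of the other, a separation seen for 8.54% of all genes tested. The median log2 fold change of the 10 genes was -0.04, with 7 below 0 and 3 above, and the median of all genes tested was -0.0011.

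**Figure D1:**
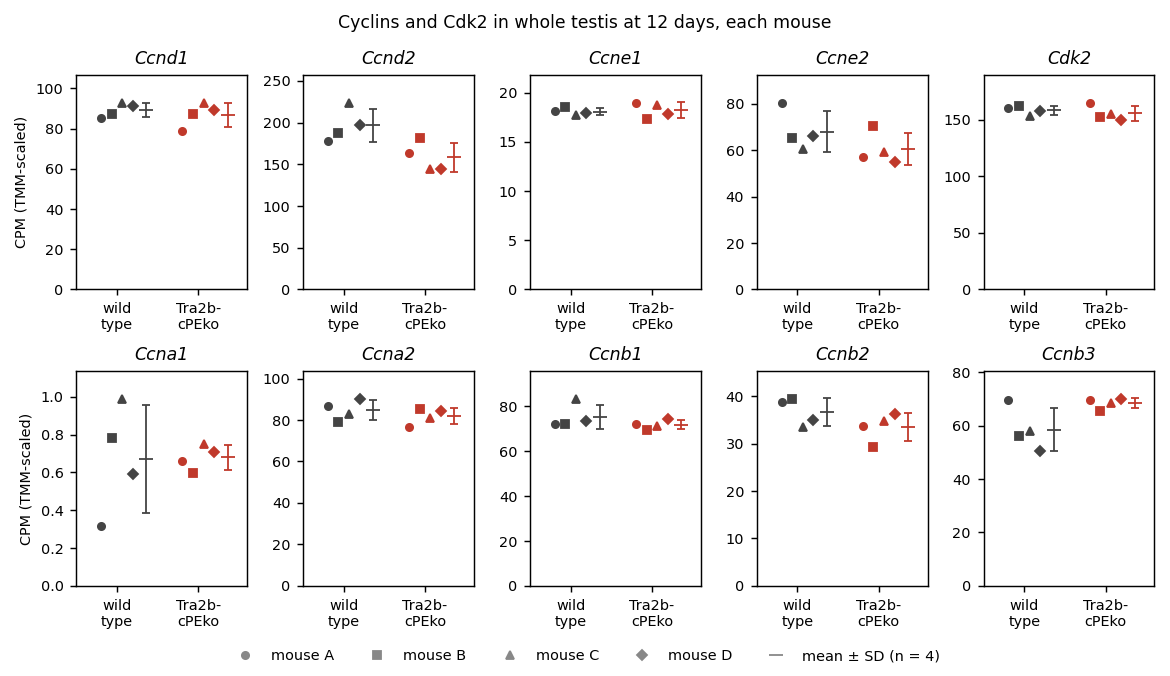
Normalised read count (CPM, y axes starting at 0 and differing between panels) of the 9 cyclin genes and Cdk2 in each of the 4 wild type (grey) and 4 Tra2b-cPEko (red) mice. Symbols give the replicate letter, which is not known to pair mice across genotypes, and bars give mean ± SD. Ccnd2 is lower in the mutant except that mutant replicate B (181) lies above wild type replicate A (177), and the 4 Ccnb3 values of the mutant lie close together between 65.7 and 70.02.

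How strongly the genes were expressed relative to each other was read from CPM per kb of merged exon, since counts grow with transcript length. The exon lengths are those of GENCODE vM39, which is not the annotation the reads were counted on. They merge the exons of all annotated transcripts of a gene, 6313 bases for *Cdk2*, and can exceed the length of its mRNA. The order between genes and the level of a ratio per kb depend on these lengths. Differences between genotypes do not. In wild type mice *Cdk2* was highest, at 25.1 ± 0.628 CPM per kb (SD, n = 4), and its lowest library lay above the highest of *Ccnd2*, which was next at 20.9 ± 2.12. *Ccna2* at 20.7 ± 1.16, *Ccnd1* at 18.6 ± 0.760, *Ccnb1* at 17.5 ± 1.26, *Ccnb2* at 16.5 ± 1.30, *Ccnb3* at 12.8 ± 1.74 and *Ccne2* at 12.1 ± 1.55 followed. From *Ccnd2* down to *Ccne2*, each gene's range overlapped that of its neighbour in this order. Overlapping ranges do not show that neighbours were level within each mouse, which was not tested. *Ccne1*, at 4.98 ± 0.0945, stood apart from *Ccne2* above it and from *Ccna1* below it. *Ccna1* was lowest at 0.259 ± 0.111 CPM per kb.

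In *Tra2b-cPEko* mice the order of the levels per kb was the same apart from *Ccnd2*, which came after *Ccna2* and *Ccnd1*. Its level was 16.8 ± 1.86 CPM per kb (SD, n = 4), next to 20.05 ± 0.940 for *Ccna2* and 18.2 ± 1.25 for *Ccnd1*. The *Ccnd2* range, 15.4 to 19.3, overlapped those of both genes. *Cdk2* was again highest at 24.6 ± 1.07, and *Ccna1* lowest at 0.263 ± 0.0248.

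The D-type cyclins carry growth factor signals to the cell cycle. *Ccnd2* (GRCm39 chromosome 6, 127102125 to 127129156, minus strand) encodes the D-type cyclin of differentiating spermatogonia and of several somatic cell types. It had 177, 188, 224 and 197 CPM in wild type replicates A to D and 163, 181, 145 and 145 CPM in *Tra2b-cPEko* replicates A to D. Replicate C was the highest of the wild type mice, and 3 of the 4 mutant mice lay below every wild type mouse, the other being replicate B. The log2 fold change was -0.31 (SE 0.087, 95% interval -0.50 to -0.12), which is a difference of -19.4%, with an interval from -29.5% to -7.83%. The adjusted p was 0.159 by edgeR and 0.0259 by DESeq2, and the exact permutation test on log2 CPM, which cannot go below 0.0286 with 4 mice against 4, gave 0.0571. Noncoding genes on the opposite strand, *9330179D12Rik*, *Gm43126* and *Gm68045*, cover 7.97%, 3.95% and 3.83% of the *Ccnd2* exon bases. *9330179D12Rik* had 10 to 23 counts per mouse (log2 fold change -0.15, adjusted p = 0.83 by edgeR).

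Marker lists of cell types were set beside the *Ccnd2* difference. Of the 7 markers of differentiating spermatogonia, all 7 had a log2 fold change below 0, with a summed level from 737 to 787 CPM in wild type mice, above the 620.3 to 711 CPM of *Tra2b-cPEko* mice, and none was at 0. *Sohlh1* was the one called by edgeR (log2 fold change -0.34, adjusted p = 0.0341). With the mean of that list as a covariate, an alternative chosen after the data were seen, the difference in *Ccnd2* was -0.20 (adjusted p = 0.9996). The list mean does not overlap between genotypes, at 6.37 to 6.46 log2 CPM in wild type mice and 6.12 to 6.29 in mutants, and this fit called 1 of 19104 genes, so it cannot tell the list and the genotype apart. Adjusting for the pachytene list instead, it was -0.42 (adjusted p = 0.0202), in a fit that called 0.602% of all genes, and without wild type replicates A and B it was -0.41 (adjusted p = 0.288). The Sertoli cell markers, 10 of 10 measured and none at 0, summed to 1512 to 1630 CPM in wild type mice against 1418 to 1603 in mutants. The part of cell composition in the *Ccnd2* difference was not tested.

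*Ccnd1* (chromosome 7, 144483668 to 144493662, minus strand) is the D-type cyclin used in many tissues. Wild type mice had 85.0, 87.3, 92.9 and 91.4 CPM and *Tra2b-cPEko* mice 78.6, 87.4, 92.5 and 89.4. Mutant replicate A lay below every wild type mouse and the other 3 mutants lay within the wild type range, and the log2 fold change was -0.04 (SE 0.054, 95% interval -0.15 to 0.08, adjusted p = 0.786). GENCODE places exons of *LTO1*, on the opposite strand, over 48.4% of the *Ccnd1* exon bases. Whether the counting used strand is not given in the sources used here. Reads of the 2 genes may therefore not be separated, or may have been set aside as ambiguous. *LTO1* had a log2 fold change of 0.06 (adjusted p = 0.614). The third D-type cyclin gene, *Ccnd3*, had 71.6 ± 3.64 CPM in wild type and 77.5 ± 3.56 in *Tra2b-cPEko* mice (SD, n = 4), a log2 fold change of 0.12 (95% interval 0.01 to 0.22, adjusted p = 0.307).

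The ratio of *Ccnd1* to *Ccnd2* per kb within a library does not depend on how libraries are scaled. It was 0.943, 0.914, 0.816 and 0.914 in wild type replicates A to D and 0.945, 0.949, 1.26 and 1.22 in *Tra2b-cPEko* replicates A to D. Every mutant mouse lay above every wild type mouse, though mutant A (0.945) and wild type A (0.943) were nearly level. The geometric mean was 0.895 in wild type and 1.08 in mutant mice, a difference of 20.9%. The exact permutation test gave p = 0.0286, the smallest this design allows, and 0.143 after Benjamini-Hochberg adjustment over the 5 ratios, so that the difference failed the correction.

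**Figure D2:**
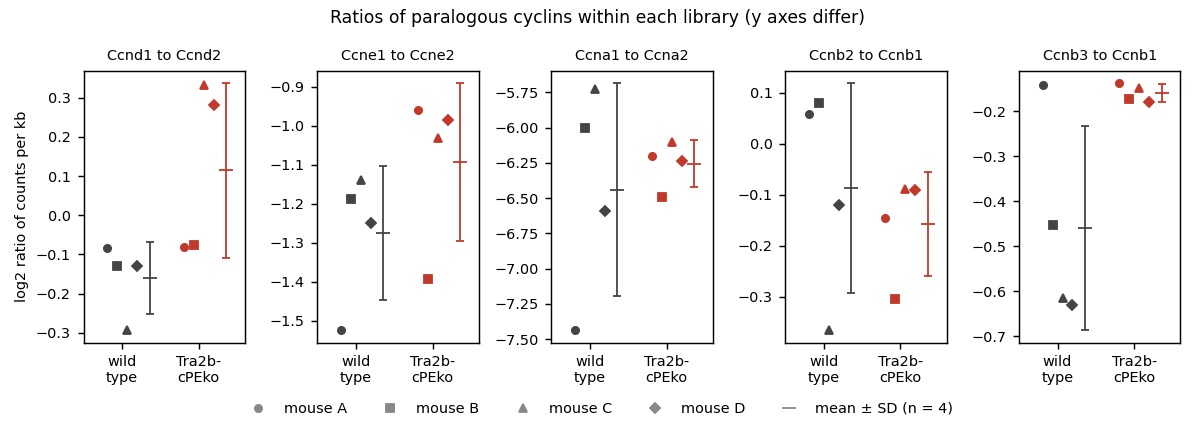
Log2 ratio of counts per kb between paralogous cyclins within each library, for 4 wild type (grey) and 4 Tra2b-cPEko (red) mice, with bars for mean ± SD and y axes that differ between panels. Only the ratio of Ccnd1 to Ccnd2 has no overlap between genotypes (adjusted exact p = 0.143), and in the ratio of Ccnb3 to Ccnb1 wild type replicate A lies among the mutant mice.

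The E-type cyclins and *Cdk2* act together at the start of DNA replication, and both are also needed in male meiotic prophase, where Cdk2 sits at telomeres. *Cdk2* (chromosome 10, 128533796 to 128540963, minus strand) had 160.0, 162, 153 and 158 CPM in wild type and 165, 153, 155 and 149.5 CPM in *Tra2b-cPEko* mice. Its log2 fold change was -0.03 (SE 0.043, adjusted p = 0.824), and the 95% interval of the difference ran from -7.83% to 4.80%. *Cdk2* was the only one of the 10 genes whose interval lay within 10% of no change, and 5 (*Ccna2*, *Ccnb1*, *Ccnd1*, *Ccne1* and *Cdk2*) had an interval within 15%. Of all genes tested, 12.8% had an interval within 10% and 36.01% within 15%.

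*Ccne1* (chromosome 7, 37797404 to 37808264, minus strand) had 18.1, 18.5, 17.7 and 18.0 CPM in wild type and 19.0, 17.3, 18.7 and 17.8 in *Tra2b-cPEko* mice, with a log2 fold change of 0.01 (95% interval -0.11 to 0.14, adjusted p = 0.933). Its mice spread less than those of any other of the 10 genes in wild type, with a coefficient of variation of 1.90%. *Ccne2* (chromosome 4, 11190303 to 11204947, plus strand), the more abundant paralogue, had 80.6, 65.3, 60.4 and 66.2 CPM in wild type and 57.3, 70.4, 59.4 and 54.8 in *Tra2b-cPEko* mice. Wild type replicate A was the highest of the 8 mice and mutant replicate B the next. The log2 fold change was -0.17 (SE 0.098, 95% interval -0.39 to 0.05, adjusted p = 0.436), with -0.08 without wild type replicate A and -0.25 (adjusted p = 0.224) without mutant replicate B.

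A gene that overlaps *Ccne2* passed the test. *Ints8*, which encodes a subunit of the Integrator complex that cleaves small nuclear and nascent RNAs, lies on the opposite strand and covers 15.2% of the *Ccne2* exon bases. It had 133, 125, 116 and 111 CPM in wild type and 93.7, 99.9, 95.6 and 92.1 in *Tra2b-cPEko* mice, with no overlap. Its log2 fold change was -0.35 (SE 0.056, adjusted p = 0.0344 by edgeR and 1.65e-05 by DESeq2). In 9 of 20 alternatives its adjusted p was 0.05 or over, while the log2 fold change stayed between -0.39 and -0.25. If strand was not used, reads in the shared exon could be counted for either gene or set aside as ambiguous. Between 0.468% and 0.635% of reads per library were set aside in that way. How much the shared exon affects the *Ccne2* value was not tested. The within-library ratio of *Ccne1* to *Ccne2* per kb had geometric means of 0.413 (wild type) and 0.469 (mutant), with overlapping ranges (exact permutation p = 0.229, 0.381 adjusted over the 5 ratios).

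The A-type cyclins differ in where they are used. *Ccna2* (chromosome 3, 36619014 to 36626299, minus strand) serves the mitotic cycle and premeiotic replication, and it had 86.7, 79.2, 82.7 and 90.2 CPM in wild type and 76.7, 85.2, 81.1 and 84.3 in *Tra2b-cPEko* mice. The ranges overlapped, and the log2 fold change was -0.05 (95% interval -0.16 to 0.06, adjusted p = 0.676). *Exosc9*, a subunit of the RNA exosome, covers 17.5% of the *Ccna2* exon bases from the opposite strand and had a log2 fold change of -0.05 (adjusted p = 0.70).

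*Ccna1* (chromosome 3, 54952890 to 54963088, minus strand) encodes the A-type cyclin of late meiotic prophase, without which male germ cells do not divide. It was barely detected at this age, with 14, 33, 47 and 35 counts in wild type replicates A to D and 33, 22, 35 and 26 in *Tra2b-cPEko* replicates A to D. The normalised read counts were 0.317, 0.781, 0.989 and 0.593 CPM in wild type and 0.662, 0.599, 0.748 and 0.708 in *Tra2b-cPEko* mice. Wild type replicates held both the lowest and the highest value. The pachytene markers were highest in wild type replicates A and B, yet A had the fewest *Ccna1* counts. The log2 fold change was 0.02 (SE 0.28), with a 95% interval from -33.3% to 55.0%. Changes within these bounds are compatible with these counts and mice. Relative to *Ccna2* per kb, *Ccna1* stood at 0.0115 (wild type) and 0.0131 (mutant), as geometric means (exact permutation p = 0.743).

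The B-type cyclins drive the divisions themselves. *Ccnb1* and *Ccnb2* are transcribed in G2 phase of dividing cells, and CCAAT boxes and cell cycle homology regions are known elements of G2 promoters, whereas *Ccnb3* is an X-linked gene whose mRNA in mouse testis belongs to early meiotic prophase. To show how the promoters of these genes differ in sequence, the windows from 250 bases before to 50 bases after the annotated start are printed below from RefSeq (GRCm38.p6, minus strand for all 3 genes). They lie at chr13:100786437-100786736 for *Ccnb1*, chr9:70421505-70421804 for *Ccnb2* and chrX:7041570-7041869 for *Ccnb3*. Capitals mark matches on either strand to the CCAAT box (CCAAT), the cell cycle homology region (TTTGAA or TTCGAA) and E2F sites (TTTCCCGC, TTTGGCGC, TTTCGCGC or TTTGCCGC), none of which overlap here.
Ccnb1: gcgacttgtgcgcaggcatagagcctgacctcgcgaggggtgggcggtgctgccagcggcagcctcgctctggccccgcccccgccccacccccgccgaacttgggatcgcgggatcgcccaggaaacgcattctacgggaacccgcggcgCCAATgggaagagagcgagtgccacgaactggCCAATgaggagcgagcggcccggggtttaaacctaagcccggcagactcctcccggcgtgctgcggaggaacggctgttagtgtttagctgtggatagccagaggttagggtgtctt
Ccnb2: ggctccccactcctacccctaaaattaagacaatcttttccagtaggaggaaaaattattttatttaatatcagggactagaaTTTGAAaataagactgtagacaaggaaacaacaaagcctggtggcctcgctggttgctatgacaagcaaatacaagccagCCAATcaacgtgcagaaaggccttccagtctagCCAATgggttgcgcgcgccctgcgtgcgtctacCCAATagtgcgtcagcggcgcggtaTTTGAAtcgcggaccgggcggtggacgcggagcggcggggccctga
Ccnb3: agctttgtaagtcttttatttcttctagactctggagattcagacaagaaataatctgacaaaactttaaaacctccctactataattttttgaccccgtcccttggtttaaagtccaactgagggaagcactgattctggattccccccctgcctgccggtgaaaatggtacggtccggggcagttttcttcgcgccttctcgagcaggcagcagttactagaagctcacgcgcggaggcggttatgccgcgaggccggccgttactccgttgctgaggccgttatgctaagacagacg
The *Ccnb1* window holds 2 CCAAT boxes, which begin 99 and 67 bases before the start, and no match to the cell cycle homology region as spelled here. *Ccnb2* holds 3, at 87, 54 and 21 bases before the start, and 2 matches to the cell cycle homology region, at 167 bases before and 4 bases after it. The *Ccnb3* window holds none of these letters. Of 32851 promoter windows of the same length, 37.4% held a CCAAT box, 19.2% a cell cycle homology region and 2.26% an E2F site. Windows were at hand for 6 of the 10 genes. In the other windows, *Cdk2* had 1 CCAAT box and 1 E2F site, *Ccna1* had 1 CCAAT box on the reverse strand, and *Ccne1* had no match.

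*Ccnb1* (chromosome 13, 100915153 to 100923116, minus strand) had 72.1, 72.1, 83.3 and 73.7 CPM in wild type and 72.2, 69.6, 71.4 and 74.6 in *Tra2b-cPEko* mice. All but wild type replicate C fell within a narrow band. The log2 fold change was -0.07 (95% interval -0.18 to 0.05, adjusted p = 0.581). Near-identical copies of *Ccnb1* exist, *Ccnb1-ps*, *Gm12856*, *Gm4870*, *Gm7483* and *Gm8416*, each at least 95% identical over at least 50% of its transcript. *Ccnb1-ps* had between 0 and 9 counts in the tables, and the *Ccnb1* count is uncertain to the extent that reads were lost to such copies. *Ccnb2* (chromosome 9, 70314966 to 70328874, minus strand) had 38.8, 39.4, 33.5 and 35.1 CPM in wild type and 33.8, 29.2, 34.8 and 36.3 in *Tra2b-cPEko* mice. Its 2 highest values were wild type replicates A and B, and the log2 fold change was -0.13 (SE 0.075, 95% interval -0.29 to 0.03, adjusted p = 0.426). Without A and B it was -0.03 (adjusted p = 0.918), an alternative chosen after the data were seen, and without mutant replicate B, the lowest of the 8 mice, it was -0.07. The ratio of *Ccnb2* to *Ccnb1* per kb within a library had geometric means of 0.942 in wild type mice and 0.897 in mutants (exact permutation p = 0.60).

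*Ccnb3* (chromosome X, 6845891 to 6907858, minus strand) had the largest positive difference among the 10 genes. Wild type mice had 69.5, 56.1, 58.0 and 50.6 CPM in replicates A to D, and *Tra2b-cPEko* mice had 69.8, 65.7, 68.6 and 70.02. The 4 mutant mice lay close together, with a coefficient of variation of 2.91%, and above 3 of the wild type mice, whose coefficient of variation was 13.6%. Wild type replicate A lay within the mutant range. The log2 fold change was 0.23 (SE 0.080, 95% interval 0.05 to 0.40), a difference of 17.2% with an interval from 3.73% to 32.3%. It did not pass the test (adjusted p = 0.229 by edgeR and 0.139 by DESeq2, exact permutation p = 0.0857).

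The *Ccnb3* difference was larger without wild type replicate A, at 0.32 (adjusted p = 0.10), and without A and B, at 0.34 (adjusted p = 0.111). It was 0.30 (adjusted p = 0.0858) with the leptotene and zygotene list as a covariate and 0.31 (adjusted p = 0.11) with the pachytene list. With the differentiating spermatogonia list, whose mean does not overlap between genotypes, it was 0.13 (adjusted p = 0.9996). The 17 markers of leptotene and zygotene spermatocytes, all measured and none at 0, had 13 log2 fold changes below 0 and 4 above. Their summed level was 2216 to 3054 CPM in wild type mice, highest in replicate A, against 2303 to 2399 in mutants. DESeq2 called 2 of the 17, both lower, against 1.14% of all genes called lower. These were *Stag3* (log2 fold change -0.30, adjusted p = 0.0256 by DESeq2 and 0.159 by edgeR) and *Mei1* (-0.36, 0.00593 and 0.101). The mean log2 CPM of this list was 6.80 and 6.67 in wild type replicates A and B and 6.34 and 6.41 in C and D. In mutants it was 6.41 to 6.48, so that only wild type replicates A and B lay above the mutants. How *Ccnb3* relates to this list was not tested. Relative to *Ccnb1* per kb, *Ccnb3* stood at 0.907, 0.731, 0.654 and 0.646 in wild type and at 0.909, 0.887, 0.903 and 0.883 in *Tra2b-cPEko* mice, with wild type replicate A again among the mutants (exact permutation p = 0.114, 0.286 adjusted over the 5 ratios). Among the 702 genes tested on chromosome X, 402 had a log2 fold change above 0 and the median was 0.02, and among 16747 autosomal genes 8077 were above 0 and the median was -0.0054.

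**Figure D3:**
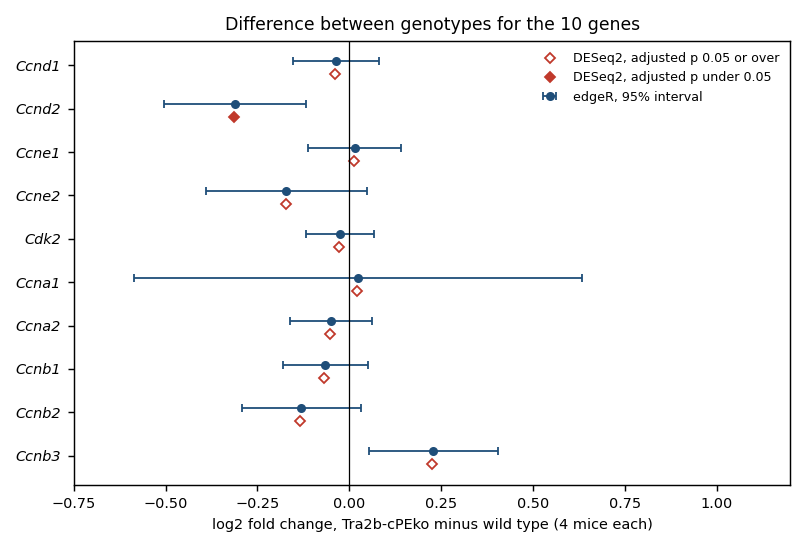
Log2 fold change between 4 Tra2b-cPEko and 4 wild type mice for each of the 10 genes, with the 95% interval of the edgeR fit (blue) and the DESeq2 estimate (red, filled where its adjusted p was under 0.05). The intervals of Ccnd2 (-0.50 to -0.12) and Ccnb3 (0.05 to 0.40) lie to either side of 0, the widest is that of Ccna1, and Ccnd2 alone is filled.

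**Figure D4:**
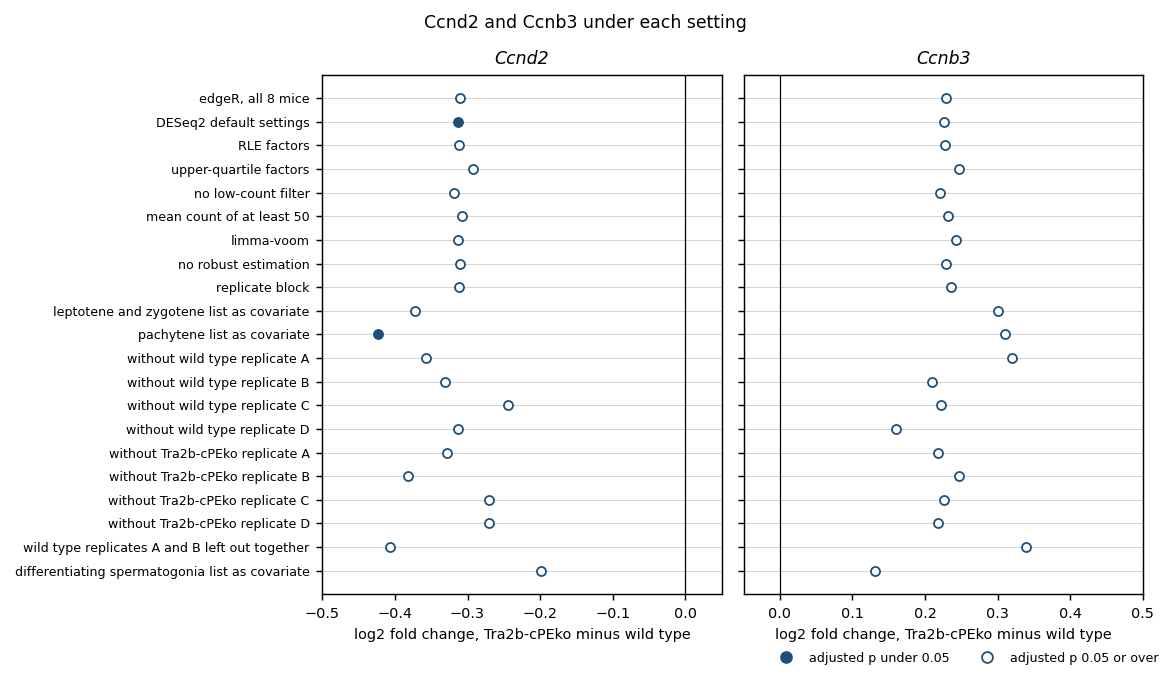
Log2 fold change of Ccnd2 (left) and Ccnb3 (right) under each setting of the test, with filled points where the adjusted p over all genes was under 0.05. Ccnd2 stays below 0 throughout, between -0.42 and -0.20, and is filled under DESeq2 and under the pachytene covariate, whereas Ccnb3 stays above 0, between 0.13 and 0.34, and is never filled.

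For *Ccna1* and *Ccnb3*, the germ cell cyclins, the genes whose pattern over the 8 libraries was most alike were sought among 15477 genes (mean CPM 1 or more), by the root mean square difference of log2 CPM scaled to mean 0 and SD 1. The nearest to *Ccnb3* was *Zfy1*, a Y-linked zinc finger gene, at a difference of 0.131, followed by *Maoa* on chromosome X at 0.248 and *Apobec1* on chromosome 6 at 0.295. *Zfy1* had 8.05 CPM on average in wild type and 9.92 in *Tra2b-cPEko* mice, with a log2 fold change of 0.30 that did not pass the test (adjusted p = 0.247). The nearest to *Ccna1* were *Trim68* at 0.214, *Dzip1l* at 0.346 and *Csf2rb2* at 0.35. These are descriptions over 8 libraries, of genes picked as the closest among 15477. The *Ccna1* pattern rests on only 14 to 47 counts per mouse.

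The other genes of the pathway were read from lists of kinases, further cyclins, inhibitors, regulators of Cdk phosphorylation, transcription factors, degradation factors and division genes, 90 genes in all, each of which was tested. None was called by edgeR or by limma-voom. DESeq2 called 1, *Ccnh*, or 1 of 90 where its share of all genes was 2.79% (1.14% lower). At an unadjusted p under 0.05 by edgeR 3 were higher and 12 lower, where the shares of all genes were 8.22% and 7.07%. Of the 90 log2 fold changes, 66 were below 0 and 24 above, with a median of -0.06, and of all genes tested 9615 of 19104 were below 0. In 9 of the 90 genes every *Tra2b-cPEko* mouse lay below every wild type mouse, as did 4.18% of all genes, and in none did every mutant mouse lie above, as did 4.36%.

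Among the other cell cycle kinases and partners, 3 of 11 genes had a log2 fold change above 0 and 8 below, with a median of -0.04. *Ccnh* encodes the cyclin of the Cdk-activating kinase, which phosphorylates Cdk2 and Cdk1 and is part of the general transcription factor TFIIH. It had 43.9, 41.6, 40.9 and 44.05 CPM in wild type and 34.0, 35.9, 35.7 and 38.9 in *Tra2b-cPEko* mice. Every mutant mouse lay below every wild type mouse. The log2 fold change was -0.24 (SE 0.054, 95% interval -0.36 to -0.12, adjusted p = 0.099 by edgeR and 0.00458 by DESeq2). *Cdk1*, the kinase partner of the B-type cyclins, had a log2 fold change of 0.05 (95% interval -0.12 to 0.22, adjusted p = 0.784), and *Cdk4*, the partner of the D-type cyclins, one of -0.05 (95% interval -0.16 to 0.05, adjusted p = 0.618).

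Of the 17 other cyclin family genes, 14 were below 0 and 3 above (median -0.07), where 9615 of all 19104 genes were below 0. In 4 of the 17 every mutant mouse lay below every wild type mouse, as did 4.18% of all genes. *Cables1*, which links cyclin-dependent kinases to other kinases, had the smallest p of that list, with a log2 fold change of -0.25 (SE 0.077, adjusted p = 0.167). Of the 9 Cdk inhibitors, 6 were below 0 and 3 above (median -0.11), and the phosphatase gene *Cdkn3* had a log2 fold change of -0.25 (SE 0.088, adjusted p = 0.222). Of the 6 regulators of Cdk phosphorylation, 4 were below 0 and 2 above (median -0.06), and *Pkmyt1*, the kinase that holds Cdk1 inactive, had -0.30 (SE 0.16, adjusted p = 0.395). Without wild type replicate B the *Pkmyt1* value was -0.16, and without A and B it was -0.0044.

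Of the 20 genes of E2F, RB and MuvB transcription, which turn cyclin genes on and off, 12 were below 0 and 8 above (median -0.03), and *E2f2* had a log2 fold change of -0.27 (SE 0.091, adjusted p = 0.199). Of the 12 genes of cyclin degradation, 10 were below 0 and 2 above (median -0.07). There *Ccnb1ip1*, a ligase that binds cyclin B1 and is needed for meiotic crossovers, had 10.9 ± 1.35 CPM in wild type and 8.67 ± 0.415 in *Tra2b-cPEko* mice (SD, n = 4), with no overlap (log2 fold change -0.33, adjusted p = 0.148 by edgeR and 0.0517 by DESeq2). Of the 15 mitotic division genes, 12 were below 0 and 3 above (median -0.06), and their log2 fold changes stayed between -0.12 and 0.08. *Bub1b*, a kinase of the spindle checkpoint, had the smallest p, at -0.07 (SE 0.038, adjusted p = 0.403).

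**Figure D5:**
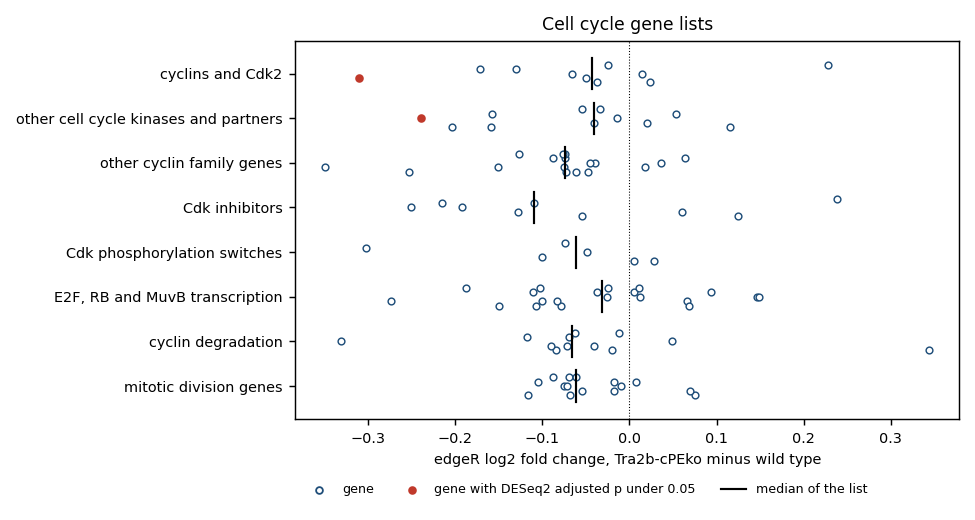
Log2 fold change (edgeR, 4 Tra2b-cPEko against 4 wild type mice) of each gene in the list of 10 cyclin and Cdk2 genes and in the 7 lists of other cell cycle genes, with the median of each list as a bar and genes called by DESeq2 in red. All 8 medians lie between -0.11 and -0.03, and the genes in red are Ccnd2 and Ccnh.

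The marker lists of the remaining cell types give the makeup of these testes beside the values above. None of the markers was at 0 in all libraries. Undifferentiated spermatogonia markers (10 of 10 tested) summed to 289 to 344 CPM in wild type mice against 301 to 319 in mutants. Of their log2 fold changes 6 were above 0 and 4 below. Pachytene markers (10 of 12 tested) summed to 221 to 436 CPM in wild type mice against 237 to 301 in mutants. All 10 tested had a log2 fold change below 0, with a median of -0.42. Among these markers only *Spag6l* was lower without overlap (0.526 to 3.71 CPM in wild type mice against 0.272 to 0.517 in mutants), as were 4.18% of all genes. Its nearest values, 0.526 and 0.517 CPM, were nearly level. Macrophage markers summed to 103 to 123.6 CPM in wild type mice against 124.2 to 151 in mutants, with 6 of 6 log2 fold changes above 0, while the mean log2 CPM of that list overlapped (3.80 to 4.08 against 4.05 to 4.35, exact permutation p = 0.0857). Leydig markers (358 to 438 against 392.2 to 626), peritubular markers (801 to 910.4 against 847 to 1035) and endothelial markers (138 to 168 against 145 to 165) overlapped. Log2 fold changes were above 0 for 5 of 6 Leydig, 4 of 4 peritubular and 5 of 5 endothelial markers. DESeq2 called 1 of 6 Leydig and 1 of 6 macrophage markers in this paragraph, both higher, and 301 of 18149 genes higher in all. The Leydig cell gene *Lhcgr* was higher, without overlap between genotypes, as were 4.36% of all genes (log2 fold change 0.46, adjusted p = 0.00851 by DESeq2 and 0.131 by edgeR). The macrophage gene *Csf1r* was also higher (0.29, adjusted p = 0.04 by DESeq2 and 0.136 by edgeR). The part of these cells in the values of the cyclin genes was not tested.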

How the data were processed

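RNA from whole testes was made into stranded mRNA libraries, 1 per mouse and 4 per genotype, and the authors deposited raw counts of reads per gene with 5 summary lines, which were left out. The submitters' processing notes name HISAT2 2.2.1, SAMtools 1.7.1, HTSeq 2.0.2 and deepTools 3.5.1 with GRCm39, and the paper's methods name Salmon for quantification. How the counting treated strand is not given in the sources used here. Between 66.4% and 69.03% of reads in the tables fell on genes. Pairs of libraries of 1 genotype differed by 6.24 to 19.1 times counting noise, so each was counted as a separate mouse.

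Counts were tested with edgeR 4.0.16 in R 4.3.3, after filterByExpr (least count 10 and least total 15) and TMM scaling, by a robust quasi-likelihood test on genotype alone. The p-values were adjusted by Benjamini-Hochberg over 19104 genes, with calls at 0.05. Mean and SD are of CPM, and log2 CPM used a prior count of 2. Single values and within-library ratios had two-sided exact permutation tests with 70 arrangements. DESeq2 1.42.0 with default settings (the method of the study), limma-voom (limma 3.58.1), other scalings and filters, the replicate letter as a block, marker lists as covariates and fits without each mouse were alternatives. Named genes were the 10 genes, *Cdk1*, *Cdk4*, *Ccnd3*, in each pathway list the genes called by edgeR or DESeq2 and otherwise the gene with the smallest p, genes overlapping one of the 10, and the 3 genes nearest in pattern to *Ccna1* and *Ccnb3*. The cyclin genes and all lists were chosen with earlier results of these data known. Positions, overlaps and copies (BLAST+ 2.17.0, at least 95% identity) come from GENCODE vM39 on GRCm39, and promoters from RefSeq. The edgeR and DESeq2 steps were tested on simulated data. Scripts ran in Python 3.11.15.

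Replicate letters are shared between genotypes, but the deviations of mice with the same letter from their group means correlated at 0.03, -0.14, -0.04 and 0.12 for A to D, and the labels tie no letter to a litter or day. The mice are stated to be biologically independent, and their exact age may vary slightly.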

Additional observations from a re-analysis of the deposited data

Results flagged for a closer look

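Of 30 groups of 4 mice examined for a mouse far from the others (10 genes in CPM and 5 ratios, in each genotype), 2 met the limit, where chance gives about 1.5. *Ccnb1* in wild type replicate C, at 83.3 CPM, lay above the next mouse at 73.7, a gap that took 0.859 of the range of the group, over the Dixon limit of 0.829. The log2 ratio of *Ccne1* to *Ccne2* in *Tra2b-cPEko* replicate B, at -1.39, lay below the next mouse at -1.03, a gap of 0.836 of the range. Without wild type replicate C the log2 fold change of *Ccnb1* was -0.0152, and without mutant replicate B the difference in that ratio was 0.28.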

How the results depend on the processing

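All genes called numbered 30, and were 507 with DESeq2, 58 with upper-quartile factors, 123 without a low-count filter, 14 with a mean count of at least 50, 12 without robust estimation, 61 with the leptotene and zygotene list and 115 with the pachytene list as covariate, 1 without wild type replicates A and B and 1 with the differentiating spermatogonia list as covariate (the last pair chosen after the data were seen). Leaving out 1 mouse gave between 3 and 84: 9 without wild type A or B, 84 without C, and 10, 76, 9 and 3 without *Tra2b-cPEko* A, B, C and D. With the replicate block 67 genes were called and no cyclin gene, though the letters are not known to pair the mice. There the ratio of *Ccnd1* to *Ccnd2* kept its value of 0.27 with p = 0.125 in the exact sign-flip test, which cannot go lower. Genes called among the 10 numbered 0, but 1 with DESeq2 and 1 with the pachytene list as covariate, both *Ccnd2*, and 0 without any 1 mouse. The median log2 fold change of the 10 genes stayed below 0 in all 20 alternatives.

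Differences near 0 changed sign. *Ccna1* was -0.13 with the leptotene and zygotene list, -0.14 with the pachytene list, -0.20 without wild type A and B and -0.55 with the differentiating spermatogonia list. In the last fit *Ccna2* was 0.068, *Ccne1* -0.071 and *Cdk1* -0.23. *Cdk2* was 0.0035 and *Exosc9* 0.028 without wild type A and B, and *Exosc9* 0.0056 with the pachytene list. Without 1 mouse, *Ccna1* ranged from -0.20 to 0.27 (level -0.18 to 0.33), *Ccnd1* from -0.070 to 0.0075 (level -0.068 to 0.0098), *Ccne1* from -0.0082 to 0.036 (level -0.0077 to 0.037), *Cdk1* from -0.0054 to 0.11, the ratio of *Ccna1* to *Ccna2* from -0.15 to 0.42, and that of *Ccnd1* to *Ccnd2* from 0.20 to 0.34, with an exact permutation p of 0.0571, the smallest that 4 against 3 allows. Without 1 mouse *Ccnd2* ranged from -0.38 to -0.24 and *Ccnb3* from 0.16 to 0.32. *Ints8*, between -0.39 and -0.25 throughout, had an adjusted p of 0.0579 with a mean count of at least 50, of 0.0531 without robust estimation, of 0.119 without wild type A and B, of 0.9996 with the differentiating spermatogonia list, and between 0.027 and 0.151 without 1 mouse. The causes were not tested.

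*Ccna1*, with 14 to 47 counts per mouse, has the widest interval, and a mean count of at least 50 removed it. The other 9 genes had 635 counts or more in every mouse. Further genes on the opposite strand were *4931419H13Rik* (over 7.16% of *Ccna1* exon bases), *1600014C10Rik* (1.93% of *Ccne1*), *Gm66040* (3.94% of *Cdk2*) and *Pmel* (0.539% of *Cdk2*). *1600014C10Rik* had a log2 fold change of 0.07 and *Pmel* of 0.17 (adjusted p = 0.603 and 0.492 by edgeR). Reads shared with overlapping genes, near-identical copies and splice forms were not resolved by counts per gene.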

Other observations

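The cell cycle lists hold further genes with an unadjusted p under 0.05 by edgeR, named here after their values were seen, and none had an adjusted p under 0.05 by edgeR, DESeq2 or limma-voom. Lower in *Tra2b-cPEko* testes were *Cdk6*, a partner of the D-type cyclins (log2 fold change -0.16), *Ccng2*, a cyclin of resting cells (-0.13), the inhibitor genes *Cdkn1c* (-0.19) and *Cdkn2a* (-0.21), the transcription factor genes *E2f5* (-0.19) and *E2f6* (-0.15), and *Foxm1*, which drives G2 and M phase genes such as *Ccnb1* (-0.11). Higher were *Cdkn2b*, an inhibitor of Cdk4 and Cdk6 (0.24), and *Rbl2*, a relative of the retinoblastoma protein (0.15). The adjusted p of these 9 genes lay between 0.20 and 0.326 by edgeR. *Foxm1* and *Ccng2*, with *Ccnk* (-0.09) and *Ccny* (-0.08), were also among the genes in which every mutant mouse lay below every wild type mouse.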
